A study of Mus musculus with 8 samples.

Results

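The 9 genes described here encode consecutive steps of the adrenergic and cyclic AMP (cAMP) pathway of brown adipose tissue (BAT): the receptors Adrb1, Adrb3 and Adra1a, the stimulatory G protein gene Gnas, the adenylyl cyclases Adcy3 and Adcy6, the phosphodiesterase Pde3b, and the protein kinase A (PKA) subunits Prkaca and Prkar2b. They were taken by name from the 31053 genes of the count table, as a list drawn up with earlier results of these data known, and all 9 had enough counts to be tested. Bulk RNA-seq was performed on BAT of 8-week-old male mice, with 4 wild-type (WT) and 4 db/db libraries. WT mice were C57BL6/J, and db/db mice (B6.BKS(D)-Leprdb/J) carry a mutation of the leptin receptor gene Lepr that makes them hyperphagic and obese. All mice were fed a normal diet and tissue was collected after a fast. The labels give strain C57BL6/J for both genotypes, and the methods do not describe the WT mice as littermates, so line and mutation cannot be told apart. The number of mice given per group for the bulk data equals the number of libraries, so each library was taken as a separate mouse, and p-values measure the spread between these libraries.

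Noradrenaline released by sympathetic nerves acts on beta-adrenergic receptors of the brown adipocyte, which couple through the stimulatory G protein to adenylyl cyclase and raise cAMP. cAMP releases the catalytic subunits of PKA from their regulatory subunits, and PKA then drives lipolysis, heat production through uncoupling protein and transcription through the cAMP response element (CRE) binding protein, whereas phosphodiesterases degrade cAMP. Adrb3 is the receptor for which rodent brown and white adipocytes are best known, Pde3b is the phosphodiesterase through which insulin restrains lipolysis, and Prkar2b is the main regulatory subunit of PKA in fat.

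The 4 WT libraries held 2374079 to 2615009 counts each and the 4 db/db libraries 2382722 to 3240074, and 3 counts, taken as the detection floor, corresponded to 0.902 to 1.33 CPM. CPM values are counts brought to a common library size and scaled by the trimmed mean of M-values (TMM), so that they compare libraries but not genes, since they are not corrected for transcript length. Lepr had 0 counts in all 8 libraries, so its transcript gave no check of the genotype. The labels name the cell type as Stromal Vascular Fraction, but the summed level of 8 pan-adipocyte markers was high in every library, at 13493 to 21898 CPM in WT and 18024 to 23552 CPM in db/db. Of 9264 genes tested with edgeR, 2568 passed an adjusted p of 0.05, and 57.1% of these were higher in db/db. Scaling to the pan-adipocyte genes moved the median log2 fold change of all genes from 0.01 to −0.15 and the share of higher calls to 43.0%.

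Adrb3, Pde3b and Prkar2b fell in db/db BAT, no member rose, and the other 6 did not pass the test. The median log2 fold change of the 9 members was −0.35, against 0.01 over all genes tested, and 7 of 9 estimates were negative. Calls made up 33.3% of the members and 27.7% of all genes, while lower calls made up 11.9% of all genes and higher calls 15.8%. Adrb3, Pde3b and Prkar2b were also the 3 members whose 4 db/db libraries all lay below the 4 WT libraries, a pattern found in 12.7% of all genes tested. No member was higher at an unadjusted p under 0.05 in edgeR, nor called higher by DESeq2 or limma-voom. Estimates ran from −1.22 for Adrb3 to 0.13 for Adrb1.

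**Figure D1:**
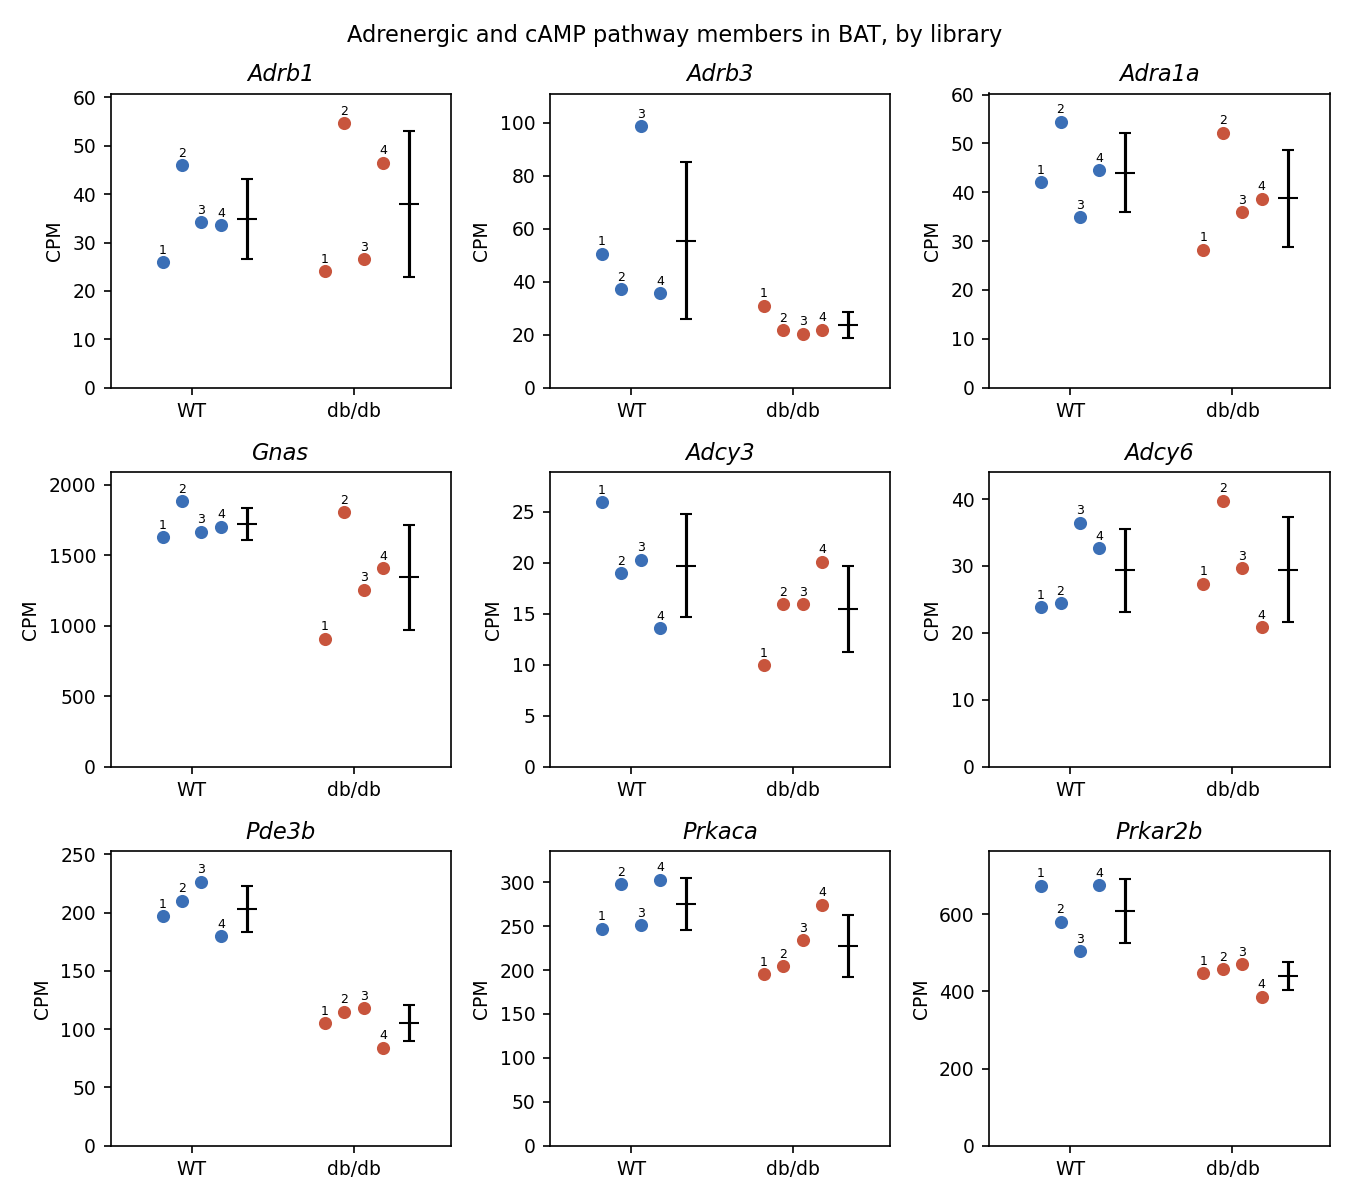
CPM of the 9 members in each library, with the replicate number above each point and the mean and SD of the 4 libraries (black bars) beside each genotype. Each panel has its own axis from 0. In Adrb3, Pde3b and Prkar2b the db/db points lie below all WT points, and in the other 6 members the genotypes overlap.

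Adrb3 (ENSMUSG00000031489, mm10 chromosome 8, 27225776 to 27250616, minus strand) encodes the beta-adrenergic receptor most restricted to adipocytes. Its level was 50.6, 37.1, 98.8 and 35.7 CPM in WT libraries 1 to 4 and 31.0, 21.6, 20.4 and 21.9 CPM in db/db libraries 1 to 4. WT library 3 stood far above the other WT libraries, yet the lowest WT library was still above the highest db/db library. The mean fell from 55.6 ± 29.6 to 23.7 ± 4.88 CPM (SD, n = 4 each), to 42.7% of WT (log2 fold change −1.22, SE 0.28, 95% interval −1.81 to −0.64, edgeR adjusted p = 0.00298). Without WT library 3 the log2 fold change was −0.81 (edgeR adjusted p = 0.00949). An exon stretch of 839 bases is shared with Gm45470 on the opposite strand, which held 7 to 15 counts per library, and since the counting is not stated to use strand the Adrb3 counts are uncertain to that extent.

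Adrb1, a second beta-adrenergic receptor (ENSMUSG00000035283, chromosome 19, 56722199 to 56733113, plus strand), did not follow Adrb3. It was at 25.9, 46.0, 34.2 and 33.5 CPM in WT and at 24.1, 54.7, 26.6 and 46.5 CPM in db/db. Both the lowest and the highest of the 8 values belonged to db/db libraries, and the genotypes overlapped throughout. The log2 fold change was 0.13 (SE 0.25, 95% interval −0.40 to 0.65, edgeR adjusted p = 0.754), and it turned to −0.05 under pan-adipocyte scaling. The interval allows a level between 0.758-fold and 1.57-fold that of WT.

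Adra1a, the alpha-adrenergic receptor that signals through Gq and calcium rather than cAMP (ENSMUSG00000045875, chromosome 14, 66635251 to 66771168, plus strand), lay at 42.1, 54.4, 34.9 and 44.6 CPM in WT and at 28.3, 52.2, 35.9 and 38.7 CPM in db/db. Only db/db library 1 was below all WT libraries. Its log2 fold change of −0.18 had a 95% interval of −0.60 to 0.24 (SE 0.20, edgeR adjusted p = 0.542). Among the other alpha-adrenergic receptors, Adra1d and Adra2c had 0 counts in all 8 libraries, and Adra1b, Adra2a and Adra2b were at most 3.31 CPM in any library and had too few counts to test.

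Gnas (ENSMUSG00000027523, chromosome 2, 174284320 to 174346744, plus strand), which encodes the alpha subunit of the stimulatory G protein, was close to even among WT libraries, at 1626, 1884, 1668 and 1704 CPM. The db/db libraries were spread more widely, at 908.2, 1808, 1257 and 1408 CPM, with 3 of 4 below every WT library and library 2 inside the WT range. The highest db/db value was 1.99 times the lowest, against 1.16 times in WT. The log2 fold change was −0.35 (SE 0.17, 95% interval −0.72 to 0.01, edgeR adjusted p = 0.135), from 1720 ± 114 to 1345 ± 373 CPM (SD, n = 4 each). The difference passed the threshold without db/db library 2 (log2 fold change −0.53, edgeR adjusted p = 0.0259) and under pan-adipocyte scaling (edgeR adjusted p = 0.0475). Gnas is a complex imprinted locus, and it shares exon bases with Nespas and Gm20721 on the opposite strand, both at 0 counts in every library.

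Adcy3 and Adcy6, adenylyl cyclases that make cAMP from ATP, held 32 to 64 and 56 to 125 counts per library and did not pass the test. Adcy3 (ENSMUSG00000020654, chromosome 12, 4133103 to 4213525, plus strand) was at 25.9, 19.0, 20.3 and 13.6 CPM in WT and at 9.93, 15.9, 16.0 and 20.1 CPM in db/db (log2 fold change −0.36, SE 0.26, 95% interval −0.90 to 0.18, edgeR adjusted p = 0.324). Adcy6 (ENSMUSG00000022994, chromosome 15, 98589973 to 98610076, minus strand) was at 23.9, 24.5, 36.4 and 32.7 CPM in WT and at 27.4, 39.8, 29.7 and 20.8 CPM in db/db (log2 fold change 0.00, SE 0.22, 95% interval −0.45 to 0.46, edgeR adjusted p = 0.991). The genotypes overlapped for both genes, and at these levels a change in Adcy6 of up to 1.37-fold lies within the interval. Of the counts of both cyclases, Adcy3 made up 40.2 ± 9.82% in WT libraries and 34.8 ± 10.2% in db/db libraries (± SD over 4; p = 0.429 by exact two-sided permutation, also after adjustment over the 4 shares reported). A share within a library does not depend on the scaling between libraries, and with 4 against 4 libraries the smallest p this exact test can give is 0.0286. Adcy3 shares exon bases with Cenpo, and Adcy6 with Gm29331, on the opposite strand, with at most 15 counts of Cenpo and 0 of Gm29331 in any library.

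Pde3b (ENSMUSG00000030671, chromosome 7, 114415281 to 114539251, plus strand), the insulin-regulated cAMP phosphodiesterase of adipocytes, had the smallest adjusted p of the 9 members. It lay at 196.7, 210.2, 226.6 and 179.5 CPM in WT and at 105.0, 114.8, 117.9 and 84.1 CPM in db/db. The groups were far apart, with the highest db/db library well below the lowest WT library. Its mean fell from 203.2 ± 19.98 to 105.4 ± 15.3 CPM (SD, n = 4 each), to 51.9% of WT (log2 fold change −0.95, SE 0.14, 95% interval −1.24 to −0.65, edgeR adjusted p = 7.54e-05). No other annotated gene overlaps Pde3b. Pde3b accounted for 72.9 ± 3.92% of all Pde3 and Pde4 counts in WT libraries and 69.3 ± 6.44% in db/db libraries (± SD over 4; p = 0.343 by exact permutation, 0.429 adjusted), with overlapping ranges.

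Prkaca (ENSMUSG00000005469, chromosome 8, 83972993 to 83996443, plus strand), which encodes the alpha catalytic subunit of PKA, was at 247.3, 298.0, 251.4 and 303.1 CPM in WT and at 195.5, 204.6, 234.0 and 274.5 CPM in db/db. As for Gnas, 3 of the 4 db/db libraries were below every WT library, here with db/db library 4 as the exception. The log2 fold change of −0.28 did not pass the test (SE 0.14, 95% interval −0.57 to 0.02, edgeR adjusted p = 0.155). Prkacb, the beta catalytic subunit, fell from 61.8 to 37.6 CPM (edgeR adjusted p = 0.00258, log2 fold change −0.72 with SE 0.16). Prkaca made up 79.4% to 82.7% of the counts of both catalytic subunits in WT and 83.9% to 87.9% in db/db, with no overlap. The exact permutation p of this share was 0.0286, the smallest possible, and 0.114 after adjustment over the 4 shares, so it did not pass the correction.

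Prkar2b (ENSMUSG00000002997, chromosome 12, 31958476 to 32061296, minus strand), which encodes the regulatory subunit RIIβ that binds cAMP and holds the kinase inactive, lay at 673.8, 580.7, 504.7 and 675.7 CPM in WT and at 446.7, 457.8, 470.3 and 386.5 CPM in db/db. All db/db libraries were below all WT libraries, though WT library 3 came close to db/db library 3. Its mean fell from 608.7 ± 82.3 to 440.3 ± 37.2 CPM (SD, n = 4 each), to 72.3% of WT (log2 fold change −0.47, SE 0.13, 95% interval −0.75 to −0.18, edgeR adjusted p = 0.0147). Without WT library 4 it did not pass the threshold (log2 fold change −0.42, edgeR adjusted p = 0.0535). Prkar1a and Prkar2a, regulatory subunits of the same kinase, were at 139.0 and 35.3 CPM in WT and 147.5 and 44.7 CPM in db/db and did not pass the test (edgeR adjusted p = 0.664 and 0.147). Prkar2b made up 71.8% to 80.7% of the regulatory subunit counts in WT and 68.0% to 72.0% in db/db (exact permutation p = 0.0571, adjusted p = 0.114), so the ranges touched at WT library 3.

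**Figure D2:**
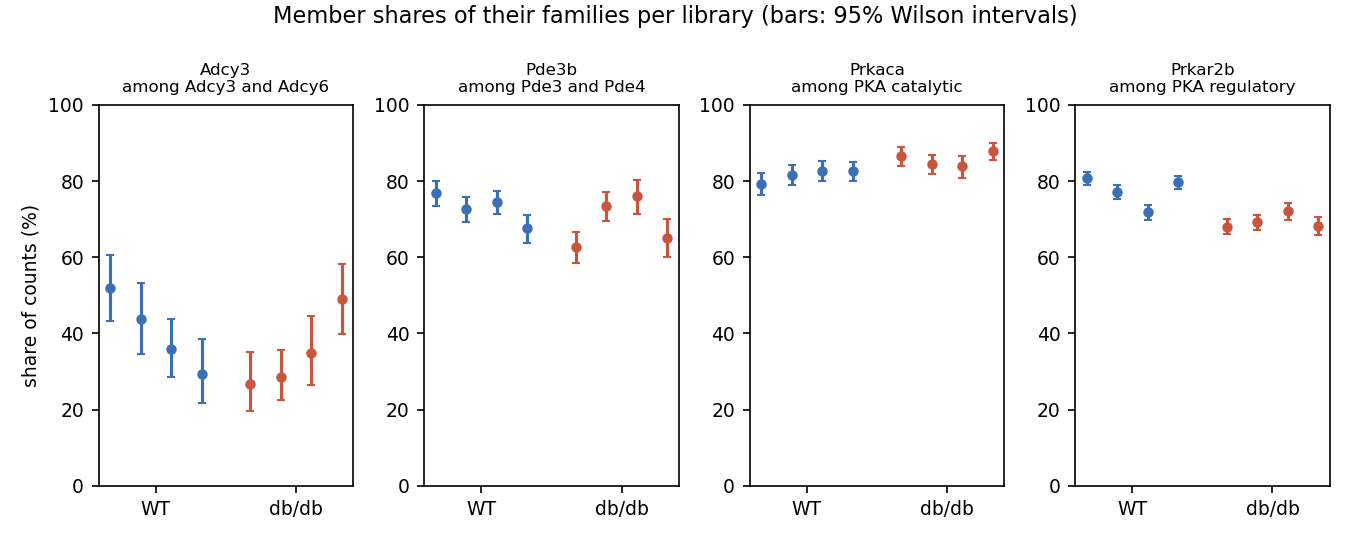
Share (%) of 4 members among the counts of their gene families in each library, with 95% Wilson intervals, WT in blue and db/db in red, replicates 1 to 4 from left to right. The shares of Prkaca do not overlap between genotypes, and those of Adcy3, Pde3b and Prkar2b do. The intervals cover counting error only.

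In bulk tissue, fewer cells of a type and less RNA per cell cannot be told apart, and other cell types did move with genotype. The summed level of the brown adipocyte markers was 7252 to 8963 CPM in WT and 3026 to 5559 CPM in db/db, with 4 of 6 tested markers lower. Pan-adipocyte markers did not follow, as 3 of 8 were higher and 1 was lower, and white adipocyte markers summed to 111.4 to 341.2 CPM in WT and 1885 to 2905 CPM in db/db, with 4 of 6 higher (Lep, Sncg, Nnat and Npr3) and Retn and Agt not passing. Macrophage markers summed to 156.6 to 212.9 CPM in WT libraries against 734.3 to 1293 CPM in db/db libraries, with 8 of 9 tested markers higher. Fibroblast markers summed to 468.9 to 587.3 against 921.1 to 1915 CPM (6 of 6 higher) and skeletal muscle markers to 433.0 to 1554 against 2307 to 11457 CPM (12 of 12 higher). Endothelial markers went the other way, at 407.3 to 467.4 against 286.6 to 335.4 CPM (3 of 7 lower). Smooth muscle and pericyte markers summed to 186.0 to 232.5 CPM in WT and 314.7 to 424.5 CPM in db/db, with 2 of 4 tested markers higher. The part of the brown adipocyte, macrophage, fibroblast and endothelial shifts in the lower levels of Adrb3, Pde3b and Prkar2b was not tested.

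The skeletal muscle markers were also entered in the fit as a score, the mean log2 CPM of the 12 genes, with values of 4.55 to 6.50 in WT libraries and 6.85 to 9.25 in db/db libraries. The score does not overlap between the genotypes, so that it shares much of its variation with genotype. Pde3b still fell in that fit (edgeR adjusted p = 0.0291, log2 fold change −1.01 with SE 0.27). Adrb3 and Prkar2b had estimates of −1.12 and −0.59 with wider errors (SE 0.52 and 0.25) and did not pass (edgeR adjusted p = 0.262 and 0.210). The estimates of Gnas and Adra1a turned to 0.04 and 0.08 there (edgeR adjusted p = 0.960 and 0.942), that of Adcy3 turned from −0.36 to 0.63 and that of Adrb1 went from 0.13 to 0.63 (edgeR adjusted p = 0.439 and 0.455). Without db/db library 1, which had the most muscle signal, Adrb3, Pde3b and Prkar2b all passed. The scores of the other db/db libraries, 6.85 to 8.21, were still above all WT scores, so that fit cannot separate muscle from genotype.

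**Figure D3:**
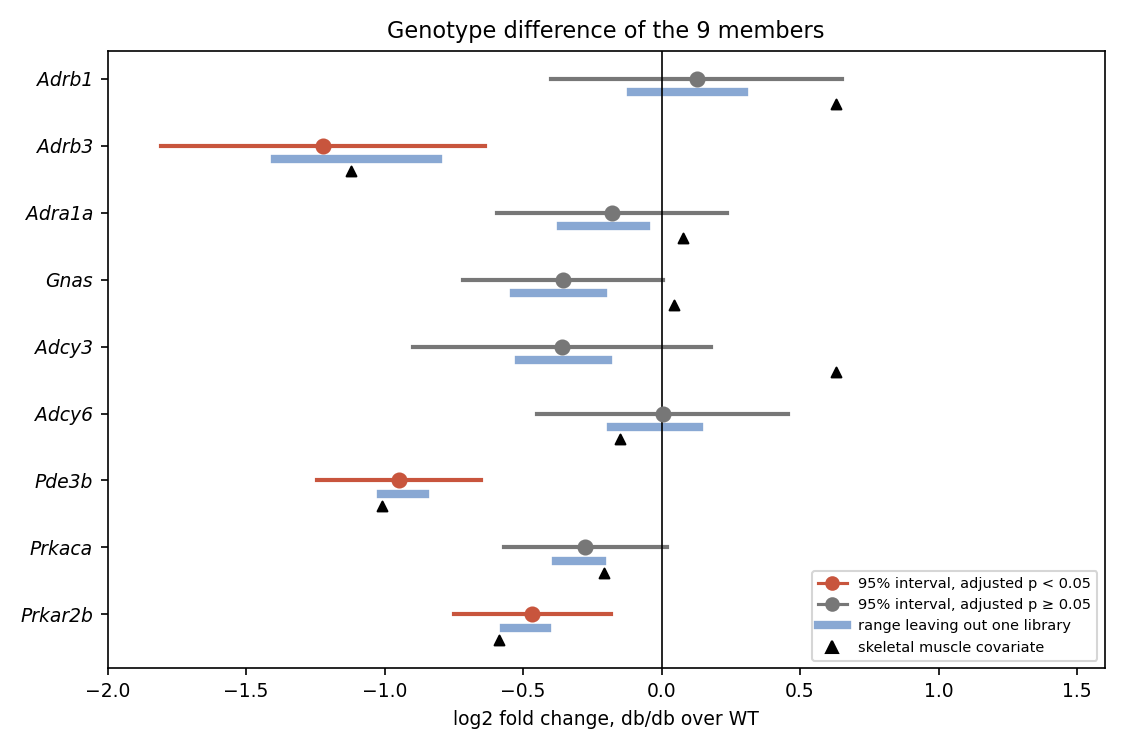
Log2 fold change of db/db over WT for the 9 members, with 95% intervals (points and thin lines, red where the edgeR adjusted p is under 0.05), the range when 1 library is left out (blue bars) and the estimate when the skeletal muscle score enters the fit (triangles). Adrb3, Pde3b and Prkar2b stay below 0 in every setting shown.

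After removal of the genotype means, the members varied together to very different degrees over the 8 libraries. The 36 pairs of members had Pearson r from −0.68 to 0.89 with a median of 0.07, and 21 were positive. Adra1a and Gnas (r = 0.89), Adrb1 and Gnas (r = 0.86) and Adrb1 and Adra1a (r = 0.80) formed the closest trio, all 3 of them highest in library 2 of each genotype. Adrb3 ran against Adra1a (r = −0.68), Prkaca (r = −0.59) and Prkar2b (r = −0.59), and its highest r was 0.35, with Pde3b. These values rest on 8 libraries that share depth and scaling within each pair and are given as a description.

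By the same measure over 8689 genes with at least 5 CPM on average, the genes whose deviations were most like those of Adrb3 were Retn (r = 0.99), Ccdc69 (r = 0.98), Cep162 (r = 0.97), Serpinb6a (r = 0.96) and Abcd2 (r = 0.96). Retn, which encodes the adipocyte hormone resistin, was at 108.5, 57.8, 230.0 and 59.4 CPM in WT and 162.2, 82.1, 81.6 and 90.8 CPM in db/db, and like Adrb3 it was highest in WT library 3 and, in db/db, in library 1. Between genotypes these 5 genes went different ways. Retn did not pass the test (log2 fold change −0.13, edgeR adjusted p = 0.820), nor did Cep162 (0.93, edgeR adjusted p = 0.0554). Ccdc69 fell (log2 fold change −1.083, edgeR adjusted p = 0.0137), while Serpinb6a and Abcd2 rose, with log2 fold changes of 2.12 and 1.07 (edgeR adjusted p = 1.62e-07 and 0.0262). Without WT library 3 the r of Retn was 0.99 and that of Cep162 and Abcd2 0.86. For Pde3b the closest genes were Nsd1 (r = 0.995), Ankrd10 (r = 0.97), Tardbp (r = 0.97), Tle3 (r = 0.96) and Zdhhc12 (r = 0.95), none of which passed the test between genotypes.

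Around the members, 123 further genes of the pathway were examined in groups by role, of which 81 could be tested. In db/db, 16 rose, 18 fell and 47 did not pass, or 42.0% called, with a median log2 fold change of 0.09. Over all genes tested the share called was 27.7%, with 15.8% higher and 11.9% lower, and the median was 0.01. When the skeletal muscle score entered the fit, 8 of the 34 called pathway genes still passed, namely Sucnr1, Adcy7, Pkia and Grk5, which were higher, and Pde4d, Akap9, Irf4 and Nr4a2, which were lower. The other 26 calls were lost in that fit, with 0 estimates turning sign and standard errors 1.43 to 1.92 times as large. The estimates of Pde7a, Akap12, Gadd45g, Pkig and Gnai2 were 0.194 to 0.495 times those without the score, and the other 21 were 0.538 times (Ucp1) to 1.397 times (Gna11). Among the 8 tested receptors that couple to stimulatory or inhibitory G proteins, Tshr and Sucnr1 rose and the other 6 did not pass. Tshr, the thyrotropin receptor, which raises cAMP, went from 5.85 to 16.0 CPM (edgeR adjusted p = 0.00539, log2 fold change 1.44 with SE 0.36), and with the muscle score its estimate was 1.18 with SE 0.63 (edgeR adjusted p = 0.353). Sucnr1, the succinate receptor, was at 0 to 1.88 CPM in WT, close to the floor, and at 6.70 to 11.97 CPM in db/db (edgeR adjusted p = 0.00013), so the size of its rise is loosely fixed.

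Of the 11 other G protein subunits tested, the inhibitory alpha subunits Gnai2 and Gnai1 rose and the Gq-family subunit Gna11 fell. The other 8 did not pass, so 27.3% were called, against 27.7% of all genes tested. Those not passing included Gnai3, Gnao1 and Gnaq (log2 fold change 0.51, 0.30 and 0.33, edgeR adjusted p = 0.243, 0.354 and 0.0945). Gnai2 lay at 146.5 to 161.6 CPM in WT and 201.7 to 351.1 CPM in db/db (edgeR adjusted p = 0.00137, log2 fold change 0.76 with SE 0.16), and Gnai1 at 32.3 to 51.0 and 53.6 to 79.4 CPM (edgeR adjusted p = 0.00694, log2 fold change 0.71 with SE 0.18). Both genes had no overlap between genotypes, while Gnas, their stimulatory counterpart, had. Gna11 fell from 95.4 to 62.9 CPM (edgeR adjusted p = 0.00405, log2 fold change −0.60 with SE 0.14). Gnai2 was highest in db/db library 1, which also had the highest macrophage sum, and its relation to that sum was not tested. With the skeletal muscle score in the fit, the estimates of Gnai2, Gnai1 and Gna11 were 0.37, 0.70 and −0.84 (SE 0.26, 0.35 and 0.25) and did not pass (edgeR adjusted p = 0.501, 0.305 and 0.0582).

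Adcy9, a widely expressed adenylyl cyclase, fell from 49.7 to 23.2 CPM (edgeR adjusted p = 0.0034, log2 fold change −1.10 with SE 0.25), with no overlap, in contrast to Adcy3 and Adcy6. Adcy7, named here after its values were seen, rose from 1.28 to 5.42 CPM (log2 fold change 2.004, edgeR adjusted p = 0.00765). Its WT libraries held 5, 1, 6 and 1 counts, around the floor of 3 counts, so the size of this rise is loosely fixed. Adcy7 is a cyclase of blood and immune cells. The macrophage sum was also higher in all db/db libraries, and its part in the level of Adcy7 was not tested. Adcy4 and Adcy5 did not pass.

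Among 8 tested phosphodiesterases apart from Pde3b, Pde4d and Pde4a fell and Pde7a rose. Pde4d, a cAMP-specific enzyme, was at 20.6, 30.4, 35.3 and 31.4 CPM in WT and at 9.03, 10.5, 6.65 and 5.58 CPM in db/db (edgeR adjusted p = 2.9e-05, log2 fold change −1.87 with SE 0.25). As a fold, the estimated fall was larger than that of Pde3b (log2 fold change −0.95). Pde4a fell from 25.5 to 13.0 CPM (edgeR adjusted p = 0.0133, log2 fold change −0.96 with SE 0.27) and Pde7a rose from 8.17 to 17.0 CPM (log2 fold change 1.04, edgeR adjusted p = 0.0194), although Pde7a did not pass without WT library 1 or without db/db library 3 (edgeR adjusted p = 0.0616 and 0.0855). Pde3a, Pde4b, Pde8a, Pde1a and Pde1b did not pass. The difference between the fold changes of Pde3b and Pde4d was not tested.

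Both tested inhibitors of the PKA catalytic subunit rose, while Prkacb fell as given above. Pkia was at 0.405, 5.06, 4.13 and 11.04 CPM in WT and at 95.4, 56.6, 71.8 and 64.7 CPM in db/db (edgeR adjusted p = 1.02e-06, log2 fold change 3.81 with SE 0.38). WT library 1 held 1 count of Pkia, below the detection floor, so the size of this rise is loosely fixed. Pkia, which muscle also expresses, was highest in db/db library 1, where the skeletal muscle sum was also highest. With the muscle score in the fit its log2 fold change was 2.74 (edgeR adjusted p = 0.000759), and the part of muscle in its level was not tested, since the score and genotype do not overlap. Pkig went from 5.91 to 15.8 CPM (edgeR adjusted p = 0.00404, log2 fold change 1.41 with SE 0.33) and did not pass with that score (log2 fold change 0.64, SE 0.58, edgeR adjusted p = 0.635).

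Of 9 tested A-kinase anchoring proteins, which tether PKA to cell structures, Akap12 rose from 18.4 to 41.2 CPM (log2 fold change 1.17, edgeR adjusted p = 0.00259) and Akap9 fell from 100.1 to 70.2 CPM (log2 fold change −0.51, edgeR adjusted p = 0.0242). Akap9 overlaps Cyp51 on the opposite strand and lost its call without WT library 2 or 4 or db/db library 2 or 4 (edgeR adjusted p = 0.0531 to 0.0757). Rapgef3, a cAMP-activated exchange factor that acts beside PKA, rose from 9.59 to 25.6 CPM (edgeR adjusted p = 0.00085, log2 fold change 1.41 with SE 0.28), whereas Rapgef2 did not pass.

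Among 8 genes of receptor desensitisation, the receptor kinase Grk5 rose from 11.1 to 33.2 CPM (edgeR adjusted p = 0.000161, log2 fold change 1.58 with SE 0.25) and the arrestin Arrb2 from 10.6 to 24.1 CPM (edgeR adjusted p = 0.000861, log2 fold change 1.19 with SE 0.23). Grk2, Grk3, Grk6, Arrb1 and Arrdc3 did not pass. Rgs2, a brake on Gq signalling, spanned 489.4 to 1477 CPM in WT libraries and 312.9 to 750.9 CPM in db/db libraries, with overlap (edgeR adjusted p = 0.0173, log2 fold change −0.98 with SE 0.29), and it did not pass in DESeq2 (adjusted p = 0.0827) or without WT library 1 or 2 (edgeR adjusted p = 0.0592 and 0.0669). Of 7 tested CREB family and coactivator genes, Atf1 fell from 26.6 to 17.5 CPM (edgeR adjusted p = 0.0247) and lost its call without WT library 4 or db/db library 1 or 4 (edgeR adjusted p = 0.0571 to 0.0654), and Creb1 was at 23.4 and 23.9 CPM (edgeR adjusted p = 0.967).

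**Figure D4:**
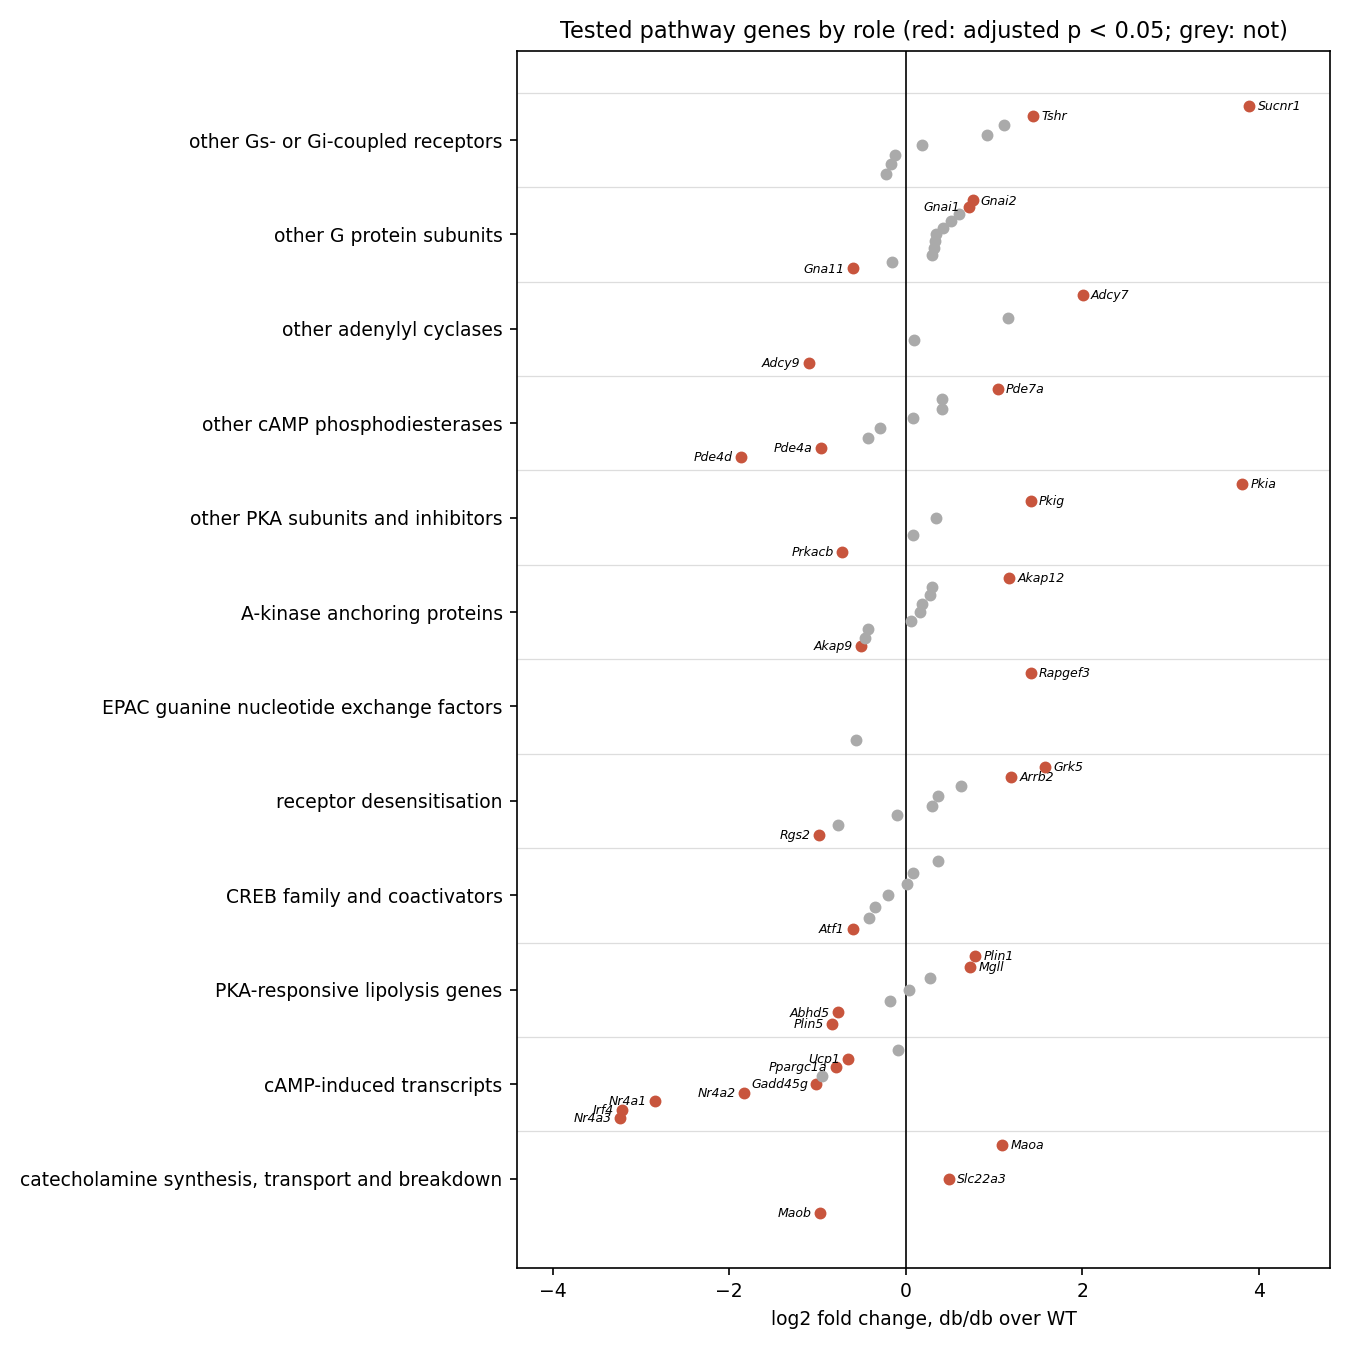
Log2 fold change of db/db over WT of the 81 tested pathway genes by role, each point a gene, red where the edgeR adjusted p is under 0.05. The cAMP-induced transcripts lie below 0, while most other groups have members on both sides.

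Among the pathway genes given with values, Gnao1, Pde7a, Rapgef3, Arrb2, Lipe, Abhd5, Mgll and Slc22a3 also share exon bases with another annotated gene. Their counts are uncertain to that extent. Downstream of PKA, the 7 tested lipolysis genes went both ways, with 2 higher, 2 lower and 3 not passing. Plin1 rose from 520.6 to 898.3 CPM and Mgll from 555.2 to 921.8 CPM (log2 fold change 0.79 and 0.73, edgeR adjusted p = 0.000685 and 0.000904); Plin1 coats the lipid droplet and Mgll splits monoglycerides. Plin5, which couples droplets to mitochondria, fell from 236.4 to 132.7 CPM (edgeR adjusted p = 0.000593, log2 fold change −0.83 with SE 0.16), as did Abhd5, the coactivator of adipose triglyceride lipase, from 89.8 to 52.8 CPM (edgeR adjusted p = 0.00495), a gene named after its values were seen. Lipe, the hormone-sensitive lipase that PKA phosphorylates, was at 925.3 and 949.5 CPM (log2 fold change 0.04, edgeR adjusted p = 0.868). Pnpla2, which encodes adipose triglyceride lipase, was at 3401 and 2999 CPM (log2 fold change −0.18, edgeR adjusted p = 0.447). G0s2 did not pass either (edgeR adjusted p = 0.515).

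Of 15 transcripts known to be induced by cAMP in brown fat, 9 could be tested. Of these, 7 fell, 0 rose and 2 did not pass (median log2 fold change −1.01), where 11.9% of all genes tested were called lower. The untested Dio2, Fos, Fosb, Bmp8b, Fgf21 and Elovl3 had too few counts, and none of them separated the genotypes. With the skeletal muscle score in the fit 2 of the 7 still passed, Irf4 and Nr4a2. Irf4, a transcription factor induced by fasting and by cold, was at 13.8, 55.3, 54.1 and 28.9 CPM in WT and at 3.01, 4.45, 4.43 and 4.46 CPM in db/db (edgeR adjusted p = 9.47e-06, log2 fold change −3.22 with SE 0.39). Every db/db library was below every WT library. The immediate early genes Nr4a2 and Nr4a1 behaved alike, with WT library 1 apart from the other WT libraries. Nr4a2 was at 17.8, 74.3, 67.6 and 84.9 CPM in WT and at 9.93, 17.8, 18.2 and 23.1 CPM in db/db (edgeR adjusted p = 0.000734, log2 fold change −1.83 with SE 0.35).

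Nr4a1 was at 1.21, 67.1, 101.8 and 67.5 CPM in WT and at 3.91, 11.8, 1.33 and 15.6 CPM in db/db. WT library 1 and db/db library 3 both held 3 counts, the detection floor, and cannot be ranked, while the other 3 WT libraries lay above all db/db libraries. The call depends on the tool (log2 fold change −2.84, edgeR adjusted p = 0.00439, against adjusted p = 0.0519 in DESeq2 and 0.252 in limma-voom). WT library 1 had the lowest CPM of the WT libraries in 6 of the 9 tested transcripts, among them Nr4a3, where its count equalled that of WT library 2. The other 4 that fell are named after their values were seen: Nr4a3, Gadd45g, Ppargc1a and Ucp1, with log2 fold changes of −3.23, −1.01, −0.79 and −0.65 (edgeR adjusted p = 0.00667, 0.0174, 0.0158 and 0.0176). Nr4a3 had 10, 10, 48 and 28 counts in WT and 0, 0, 0 and 11 in db/db, so the size of its difference is loosely fixed. Its level in db/db library 4, 4.09 CPM, was above WT library 1 (4.05 CPM) and just below WT library 2 (4.22 CPM). Sik1 and Per1 did not pass (log2 fold change −0.95 and −0.08, edgeR adjusted p = 0.150 and 0.801).

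**Figure D5:**
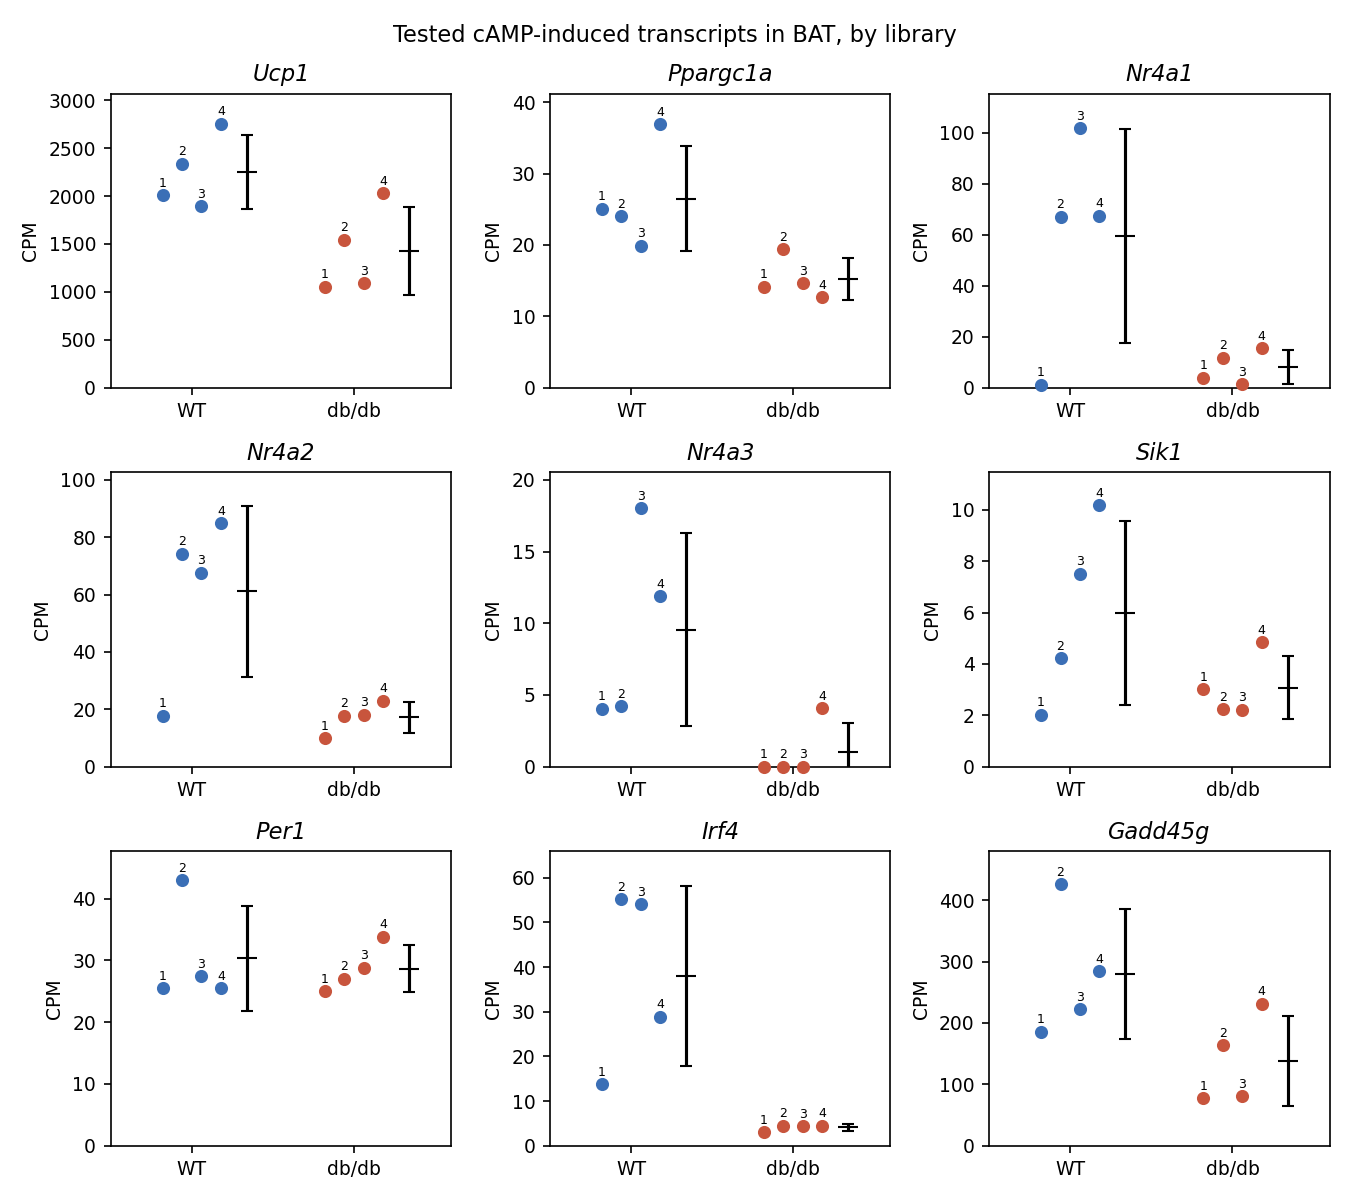
CPM of the 9 tested cAMP-induced transcripts in each library, with the replicate number above each point and the mean and SD of 4 libraries (black bars). Irf4 and Ppargc1a have no overlap between genotypes, and in Nr4a1 and Nr4a2 WT library 1 lies apart from the other 3 WT libraries.

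CREB binds the half-site TGACG, read here on both strands (CGTCA on the other), and promoters are shown for a member that fell, a member that did not pass and a pair of cAMP-induced transcripts that fell. The windows are RefSeq promoters of build GRCm38.p6, from 250 bases before to 50 bases after a RefSeq transcript start, which need not be the outermost start of the gene, given 5′ to 3′ on the strand of the gene, with half-sites in capitals. Of 32851 such promoters, 20.8% held a half-site on either strand, 1.79% the full palindrome TGACGTCA and 0.231% 4 or more half-sites. The table held 5 members, namely Adrb1, Gnas, Adcy3, Prkaca and Prkar2b, of which 3 had a half-site in a promoter. Of the cAMP-induced transcripts 13 were in the table and 10 had one. These counts are of genes with a site in any of their promoters, and some genes have several. They therefore do not compare directly with the shares of all promoters. Prkar2b, which fell, had none in its first promoter (chr12:32061228-32061527, minus strand), and Prkaca, which did not pass, had 2, starting 120 and 6 bases before that start (chr8:83972728-83973027, plus strand).
Prkar2b: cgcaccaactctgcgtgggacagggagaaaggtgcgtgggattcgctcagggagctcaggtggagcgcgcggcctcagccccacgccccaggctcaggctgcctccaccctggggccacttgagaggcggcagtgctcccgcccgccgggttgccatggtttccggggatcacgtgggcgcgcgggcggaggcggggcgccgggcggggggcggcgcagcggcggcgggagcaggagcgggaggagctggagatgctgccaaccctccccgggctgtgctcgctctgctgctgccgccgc
Prkaca: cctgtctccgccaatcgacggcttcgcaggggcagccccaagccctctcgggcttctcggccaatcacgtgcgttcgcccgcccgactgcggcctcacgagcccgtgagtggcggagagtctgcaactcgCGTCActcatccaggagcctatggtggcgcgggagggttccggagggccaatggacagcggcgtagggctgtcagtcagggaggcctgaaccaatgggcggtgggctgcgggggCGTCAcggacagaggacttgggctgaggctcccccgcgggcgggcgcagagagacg

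Nr4a1 (chr15:101266596-101266895, plus strand) and Nr4a2 (chr2:57123954-57124253, minus strand) each held 4 half-sites, which start 233, 213, 69 and 40 bases before the transcript start used for Nr4a1 and 200, 144, 123 and 111 bases before that for Nr4a2. The Nr4a1 window lies inside the GENCODE gene, which runs from 101254269 to 101274795 on chromosome 15, and so belongs to an internal start. The promoters of Irf4 and Gadd45g, which fell as well, held none. These matches describe the letters of the windows.
Nr4a1: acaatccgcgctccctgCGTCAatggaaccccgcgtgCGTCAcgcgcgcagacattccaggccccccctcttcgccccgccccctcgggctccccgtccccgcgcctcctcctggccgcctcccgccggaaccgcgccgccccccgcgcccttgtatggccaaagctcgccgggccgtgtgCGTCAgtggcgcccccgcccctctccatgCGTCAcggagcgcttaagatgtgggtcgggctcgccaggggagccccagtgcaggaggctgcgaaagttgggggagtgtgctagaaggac
Nr4a2: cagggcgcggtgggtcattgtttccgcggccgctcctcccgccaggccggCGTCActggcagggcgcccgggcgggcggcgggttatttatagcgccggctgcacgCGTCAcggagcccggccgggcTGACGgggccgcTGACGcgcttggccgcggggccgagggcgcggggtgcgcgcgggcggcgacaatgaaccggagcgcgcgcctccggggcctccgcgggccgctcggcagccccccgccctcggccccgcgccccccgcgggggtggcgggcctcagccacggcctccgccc

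At the top of the pathway, the transcripts of noradrenaline synthesis and release lie in the cell bodies of sympathetic neurons outside the tissue. Th had 0 counts in all 8 libraries, and Dbh, Ddc, Slc18a2 and Slc6a2 were at most 0.887 CPM in any library. The 8 markers of sympathetic nerve and Schwann cells summed to 98.5 to 173.0 CPM in WT libraries and 326.1 to 536.4 CPM in db/db libraries, but the neuronal genes Th, Tubb3 and Prph were at 0 in all of them. Genes of catecholamine uptake and breakdown were measurable, and the 3 tested here passed. Maob fell from 101.7 to 51.9 CPM (edgeR adjusted p = 0.000839, log2 fold change −0.98 with SE 0.19) and Maoa rose from 6.35 to 13.5 CPM (edgeR adjusted p = 0.00797, log2 fold change 1.09 with SE 0.28), so that the monoamine oxidases went opposite ways. The transporter Slc22a3 rose from 34.9 to 48.9 CPM (log2 fold change 0.48, edgeR adjusted p = 0.0472), close to the threshold. The call was lost in DESeq2 (adjusted p = 0.0968), under pan-adipocyte scaling (edgeR adjusted p = 0.205) and without any single library other than WT library 4 (edgeR adjusted p = 0.0654 to 0.165).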

How the data were processed

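Single-end mRNA-seq libraries of BAT from 4 WT and 4 db/db mice were analysed, grouped by their titles. The authors deposited raw counts per Ensembl gene. Their methods name bbduk, STAR on mm10 and HTSeq-count, while the submitters' processing notes list Trimmomatic, HISAT2, DESeq2 and GRCm38, and strandedness and collapsing of molecular identifiers are not given in the sources used here, so PCR copies may be counted. The deposited normalized log2 table and the sample sheet were not used. Of 31053 genes, 31011 matched GENCODE M21.

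Genes were filtered with filterByExpr (minimum count 10, minimum total 15), scaled by TMM and tested by quasi-likelihood in edgeR 4.0.16 (R 4.3.3), genotype being the only term, with Benjamini-Hochberg adjustment over 9264 genes at 0.05. Shares were compared by exact permutation tests (scipy 1.17.1). Intervals and floors cover counting error only for shares and single libraries. The procedure was tested on simulated data. Alternatives were DESeq2 1.42.0, limma-voom (limma 3.58.1), other scalings and filters, a replicate block, a skeletal muscle score and leaving out each library.

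The members and gene lists were chosen with earlier results of these data known. Named genes were the 9 members, up to 3 genes per list with the smallest adjusted p (under 0.05, mean of at least 5 CPM) and the 5 genes most like Adrb3 and Pde3b in their deviations from the genotype means; other genes given with values were chosen after their values were seen. Some list genes and 1 planned share are not reported here and were left out of the counts, the naming rule and the adjustment over shares.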

Additional observations from a re-analysis of the deposited data

Results flagged for a closer look

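Within a genotype, 82 groups of 4 libraries were searched for a lone distant library, and 2 stood out, where chance alone gives about 4.1. Adrb3 was at 31.0 CPM in db/db library 1 against 20.4 to 21.9 CPM in the other db/db libraries, and still below all WT libraries. Irf4 was at 3.01 CPM in db/db library 1 against 4.43 to 4.46 CPM in the others, which lie so close together that a small gap is enough to stand out.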

How the results depend on the processing

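With the skeletal muscle score in the fit, 493 genes passed (368 higher and 125 lower) in place of 2568, 1 member (Pde3b) in place of 3, and 8 pathway genes in place of 34; the score does not overlap between genotypes, and the cause of the lower counts was not tested further. Leaving out each library in turn gave 2236 to 2483 genes, 2 to 4 members and 31 to 36 pathway genes. Over those fits the difference in share (db/db minus WT, percentage points) ran from −10.2 to −1.46 for Adcy3, −5.77 to −1.32 for Pde3b, 3.39 to 4.74 for Prkaca and −9.85 to −6.88 for Prkar2b. Testing every gene with a count gave 3170 genes and 4 members, Gnas being added (edgeR adjusted p = 0.0495), and requiring 10 counts in every library gave 2018 genes. Replicate numbers are shared by different mice and did not pair the libraries (r of same-numbered deviations 0.04, 0.05, −0.08 and −0.01), and with the replicate block 2557 genes, 3 members and 36 pathway genes passed. Of the 9 members, 86 of 90 comparisons with other settings and 70 of 72 with 1 library left out stayed on their side of the threshold; the exceptions are Adrb3, Prkar2b and Gnas, given with their values. Estimates of Adrb1, Adra1a, Gnas, Adcy3 and Adcy6 crossed 0 in some settings, always without a call. For the other 28 named genes 245 of 276 and 206 of 224 such comparisons stayed on their side of the threshold, and no call changed sign. Depth limits genes under 1.33 CPM, and the differences of Gnas and Prkaca did not pass in the main fit of the 8 libraries.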
